A study of Sus scrofa with 15 samples.

Results

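The suppressor of cytokine signalling (SOCS) family was followed across 3 porcine NK cell populations. Its 8 members, *CISH* and *SOCS1* to *SOCS7*, were taken by gene symbol from a table of 29886 genes, and all 8 symbols were found. Of these, 7 had enough reads to be tested and *CISH* was listed at 0 in every library. The cells came from 5 pigs, 6 months old, and were sorted by FACS as CD3-CD172a- lymphocytes: CD8αhigh NK cells from blood (cNK cells, labelled blood NK), CD8αhigh NK cells from flushed liver (labelled conventional liver NK) and CD8αdim NK cells from the same livers (lrNK cells, labelled liver resident NK). Each pig gave 1 library of each population, so that there were 15 libraries. No protein particular to NK cells is part of these gates.

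SOCS proteins are feedback brakes of cytokine signalling. Cytokines such as IL-2, IL-15, IL-12 and the interferons act through receptors whose JAK kinases phosphorylate STAT transcription factors, and these STATs switch on *CISH*, *SOCS1*, *SOCS2* and *SOCS3*. The proteins then bind phosphorylated receptors or JAKs through their SH2 domain, and through their SOCS box they recruit elongins B and C with cullin 5, a ubiquitin ligase. In NK cells CIS, the product of *CISH*, is known as a brake on the response to IL-15, while *SOCS4* to *SOCS7* are less dependent on cytokines and are mostly known from growth factor and insulin signalling.

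The libraries read the 3′ end of polyadenylated transcripts and held 2003499 to 5680221 counts each. Levels are given as CPM, the usual unit of reads scaled to a common library total, here that of the tested genes after TMM normalization. *CD8A*, whose product was gated on, had 43.4 ± 10.5 CPM (SD, n = 5) in lrNK cells, 466 ± 149 CPM in blood and 490 ± 138 CPM in liver CD8αhigh NK cells. *EOMES*, a T-box factor gene that marks porcine lrNK cells, ran from 442 to 813 CPM in lrNK cells and stayed at or below 218 CPM in both CD8αhigh populations, and *TBX21* stayed at or below 246 CPM in lrNK cells with at least 969 CPM elsewhere. Of the libraries, 3 stood apart. The lrNK library of pig 3 had 359.5 CPM of the elongation factor gene *EEF1A1*, with 1405 to 3018 CPM in the other lrNK libraries. Its level of the residency marker gene *CXCR6* was 86.2 CPM, with 607 to 837 CPM in the other lrNK libraries, and lay below the 153 CPM of the liver CD8αhigh library of pig 1. The latter had the highest *EOMES* and *CXCR6* levels of its population. The blood library of pig 4 had a sum of 318 CPM of 3 erythroid markers, with a median of 2.98 CPM over the blood libraries. The summed level of 7 B cell markers was 452 to 1039 CPM in lrNK cells, 62.1 to 182 CPM in blood and 27.9 to 69.4 CPM in liver CD8αhigh NK cells, and their part in the results was not tested. *CD79A*, a defining B cell gene, was listed at 0 in all 15 libraries, while *MS4A1* was counted. All 6 T cell markers together had 110 to 593 CPM in lrNK cells, 636.5 to 1203 CPM in blood and 714 to 1076 CPM in liver CD8αhigh NK cells, mostly from *CD3G*, and *CD4* and *CD5* were at 0 throughout. Hepatocyte markers summed to at most 8.14 CPM in any library and 8 myeloid markers to at most 25.6 CPM, of which *LYZ* was higher in lrNK cells than in liver CD8αhigh NK cells (8.56 ± 9.86 against 0.365 ± 0.508 CPM, edgeR FDR = 0.0271). In such bulk samples, fewer cells of a type and less RNA per cell cannot be told apart.

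Of the SOCS genes, *SOCS1*, *SOCS2* and *SOCS7* were lower in lrNK cells in at least 1 comparison, and none was higher. In lrNK cells against blood, 2 of the 7 tested members, *SOCS2* and *SOCS7*, were lower and none was higher at an FDR under 0.05. Here FDR is the p-value of the quasi-likelihood test of edgeR, adjusted by Benjamini-Hochberg over 10939 genes, and SE stands for standard error in log2 units. Of all genes tested, 18.2% passed in this comparison, 9.6% being lower and 8.62% higher in lrNK cells. Against liver CD8αhigh NK cells, *SOCS1*, *SOCS2* and *SOCS7* were lower and none was higher, beside 14.6% of all genes called, 7.68% lower and 6.96% higher. Between the CD8αhigh populations no member passed, and 0.064% of all genes did, 0.0457% being higher and 0.0183% lower in the liver cells. The levels of no member were fully apart between the CD8αhigh populations, while those of 2.01% of all genes were. The median log2 fold change of the 7 tested members was -0.36 in lrNK cells against blood and -0.50 against liver CD8αhigh NK cells, where the medians over all genes tested were 0.01 and 0.02. In liver CD8αhigh NK cells against blood it was 0.42, with -0.02 over all genes. With so few members, these shares describe the family and do not set it apart from other genes. Both lrNK comparisons share the lrNK libraries, and both comparisons with blood share the blood libraries.

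**Figure D1:**
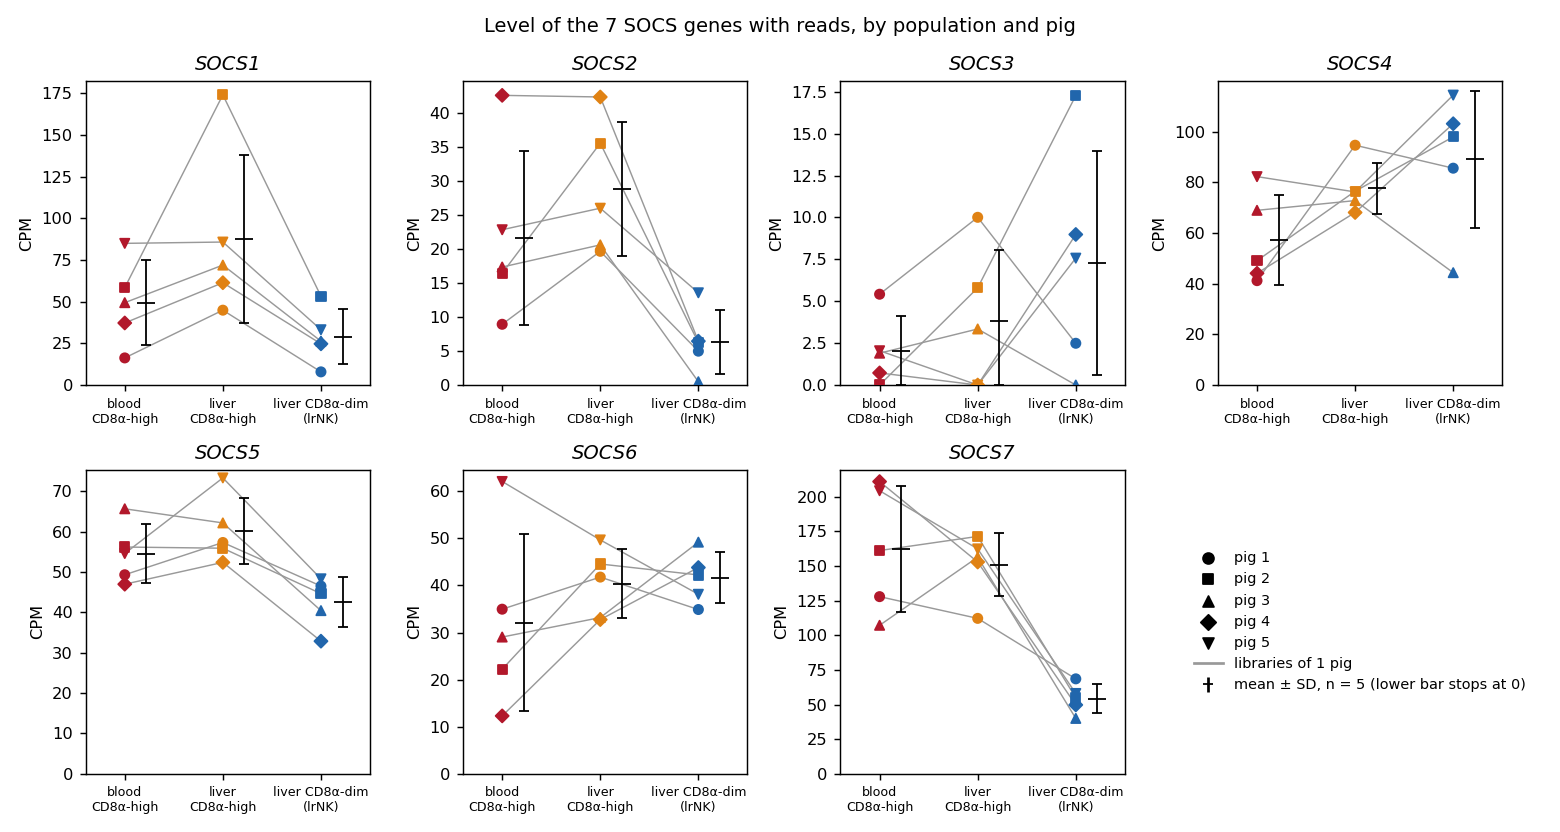
Level in CPM (linear axes from 0, a scale for each gene) of the 7 SOCS genes with reads in the 15 libraries, by population. Grey lines join the libraries of 1 pig, symbols mark the pigs and black bars give mean ± SD (n = 5). In each of the 5 pigs, *SOCS1*, *SOCS2*, *SOCS5* and *SOCS7* were lowest in lrNK cells.

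*SOCS7* had the smallest p-value of the family in both lrNK comparisons. It encodes a SOCS box protein with a long N-terminal part that is known to bind insulin receptor substrate proteins, and it lies on chromosome 12 from 23687115 to 23723427 (Sscrofa11.1). Its level in blood was 128, 161, 107, 211 and 204 CPM in pigs 1 to 5. The liver CD8αhigh libraries had 112, 171, 156, 153 and 162 CPM. The lrNK libraries had 68.5, 54.7, 39.9, 49.7 and 58.0 CPM. Every lrNK library was thus below every CD8αhigh library, while the levels of the CD8αhigh populations overlapped. Non-overlapping levels were found for 13.5% of all tested genes between lrNK cells and blood, and for 11.9% between lrNK cells and liver CD8αhigh NK cells.

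The mean *SOCS7* level was 54.2 ± 10.5 CPM (SD, n = 5) in lrNK cells, 162 ± 45.7 CPM in blood and 151 ± 22.8 CPM in liver CD8αhigh NK cells. The level was 2.99-fold lower in lrNK cells than in blood (log2 fold change -1.58, SE 0.21, edgeR FDR = 9.50e-06). Against liver CD8αhigh NK cells it was 2.79-fold lower (log2 fold change -1.48, SE 0.21, edgeR FDR = 2.70e-05). Without the blood library of pig 4 the log2 fold change against blood was -1.47. Without the lrNK library of pig 3 the log2 fold changes were -1.48 and -1.39, and without the liver CD8αhigh library of pig 1 they were -1.57 and -1.57, each still past the threshold. In no pig was the lrNK level above 0.611 times that of either CD8αhigh population. Pig 1 had the smallest decrease in both comparisons.

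*SOCS2* was also low in lrNK cells. Its product is best known as a brake on growth hormone and IGF-1 signalling and is induced through STAT5, and the gene lies on chromosome 5 from 89581081 to 89587424. From pig 1 to pig 5, the lrNK libraries had 4.98, 6.24, 0.487, 6.46 and 13.6 CPM, from 12, 13, 1, 23 and 52 reads. Blood libraries had 8.94, 16.4, 17.4, 42.6 and 22.9 CPM. Liver CD8αhigh NK cells had 19.7, 35.6, 20.6, 42.4 and 26.03 CPM. The lrNK levels were all below those of liver CD8αhigh NK cells, and they overlapped with blood only because the lrNK library of pig 5 was above the blood library of pig 1.

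Against blood, the *SOCS2* level was 3.28-fold lower in lrNK cells (6.35 ± 4.71 against 21.6 ± 12.7 CPM, SD, n = 5), with a log2 fold change of -1.71 (SE 0.50, edgeR FDR = 0.0199). Against liver CD8αhigh NK cells (28.9 ± 9.86 CPM) it was 4.40-fold lower, with a log2 fold change of -2.14 (SE 0.50, edgeR FDR = 0.00515). It was lower in 5 of 5 pigs in both comparisons, and 25.9% and 24.1% of all genes had the same direction in 5 of 5 pigs. The difference from blood missed the threshold without pig 4 (log2 fold change -1.32, edgeR FDR = 0.142) and without its blood library alone (-1.32, edgeR FDR = 0.084), the library with the highest *SOCS2* level and the erythroid markers, whose part in this difference was not tested. It also did so, at a fold as large as with all libraries, without pig 2 (-1.78, edgeR FDR = 0.0608) and in a fit of lrNK and blood libraries alone (-1.73, edgeR FDR = 0.0586). Without the lrNK library of pig 3, which had a single read, the log2 fold changes were -1.41 against blood and -1.85 against liver CD8αhigh NK cells, at edgeR FDRs of 0.0207 and 0.00377.

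*SOCS1* was highest in liver CD8αhigh NK cells in 5 of 5 pigs and lowest in lrNK cells in 5 of 5 pigs. SOCS1 blocks the catalytic site of JAK1, JAK2 and TYK2 through its kinase inhibitory region and is a major brake on interferon-γ signalling. The gene lies on chromosome 3 from 31879143 to 31883041. In pigs 1 to 5 its level was 16.3, 58.4, 49.4, 37.2 and 84.96 CPM in blood, 44.9, 174, 71.9, 61.4 and 85.7 CPM in liver CD8αhigh NK cells, and 7.89, 53.3, 26.3, 24.7 and 33.2 CPM in lrNK cells. The levels of all 3 populations overlapped, since the pigs also differed from each other within a population. Pig 1 had the lowest level in each of the 3 populations and pig 2 the highest in both liver populations.

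In lrNK cells against liver CD8αhigh NK cells, the *SOCS1* level was 3.02-fold lower (29.1 ± 16.4 against 87.6 ± 50.6 CPM, SD, n = 5), with a log2 fold change of -1.59 (SE 0.44, edgeR FDR = 0.0159). The edgeR FDR was 0.0504 without pig 4, at a log2 fold change of -1.65. Against blood (49.2 ± 25.5 CPM) the log2 fold change was -0.76 (SE 0.44, 95% interval -1.67 to 0.15) and did not pass (edgeR FDR = 0.262). With the pig as a block this difference passed, at -0.81 (SE 0.25, edgeR FDR = 0.0262). Liver CD8αhigh NK cells against blood was at 0.83 on the log2 scale (SE 0.43, 95% interval -0.05 to 1.72, edgeR FDR = 1.00), with ratios of 2.76, 2.98, 1.46, 1.65 and 1.01 in pigs 1 to 5. Leaving out each pig moved this value between 0.49, without pig 2, and 1.13, without pig 5. With the block its unadjusted p in edgeR was 0.0023 and its FDR 0.436.

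Immediate early and heat shock genes, which respond to cell handling as well as to stimulation, also differed between blood and the liver populations. The summed level of 28 such genes was 2460 to 2859 CPM in blood, 3784 to 6211 CPM in liver CD8αhigh NK cells and 3556 to 4111 CPM in lrNK cells. The highest sum, 6211 CPM, was that of the liver CD8αhigh library of pig 2, which also had the highest *SOCS1* level. Of 23 tested genes of the list, 3 were higher in liver CD8αhigh NK cells than in blood, namely *NR4A2*, *EGR3* and the heat shock gene *HSPA8*, with log2 fold changes of 2.13, 3.54 and 1.15 (edgeR FDR = 0.0103 for each). These are 13% of the list, with 0.064% of all genes called. In lrNK cells against blood, 7 genes of the list were higher and 5 lower (52.2% called, with 18.2% of all genes), and against liver CD8αhigh NK cells 1 was higher and 5 were lower (26.1% called, with 14.6% of all genes). Much of the sum came from *HSPA8*, with 636 CPM in blood and 1413 CPM in liver CD8αhigh NK cells, and *HSP90AA1*, with 649 and 1086 CPM, the latter gene not passing (edgeR FDR = 0.446). Their part in the *SOCS1* level was not tested.

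*SOCS3* was scarcely counted. Its product inhibits JAK kinases bound to the IL-6 receptor chain gp130, and the gene lies on chromosome 12 from 3643832 to 3647015. Reads numbered 20, 0, 7, 2 and 6 in blood, 29, 22, 12, 0 and 0 in liver CD8αhigh NK cells and 6, 36, 0, 32 and 29 in lrNK cells of pigs 1 to 5. The lrNK level was the highest of the 3 populations in pigs 2, 4 and 5 and lower than in both CD8αhigh populations in pigs 1 and 3. The log2 fold change against blood was 1.82 (SE 1.19, 95% interval -0.65 to 4.29, edgeR FDR = 0.336), an interval that holds both a small decrease and a large increase. Against liver CD8αhigh NK cells it was 0.94 (95% interval -1.44 to 3.33), and 1.69 without the liver CD8αhigh library of pig 1 (edgeR FDR = 0.471). Leaving out all libraries of 1 pig moved the values between 0.92 and 2.84 against blood and between 0.52 and 1.90 against liver CD8αhigh NK cells, with the highest value without pig 1 in both.

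*CISH*, on chromosome 13 from 33086280 to 33090540, was listed at 0 in all 15 libraries. By counting error alone, 0 reads allow at most 0.179 CPM over the blood libraries, 0.148 CPM over the liver CD8αhigh libraries and 0.215 CPM over the lrNK libraries, taking 3 reads per population as the limit. However, *TBP*, a general transcription factor that every cell uses, was also at 0 in 14 of 15 libraries, and *NR4A1* and *BCL3* were at 0 in all 15. A listing at 0 was therefore not read as absence of the transcript, and *CISH* entered no comparison.

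**Figure D2:**
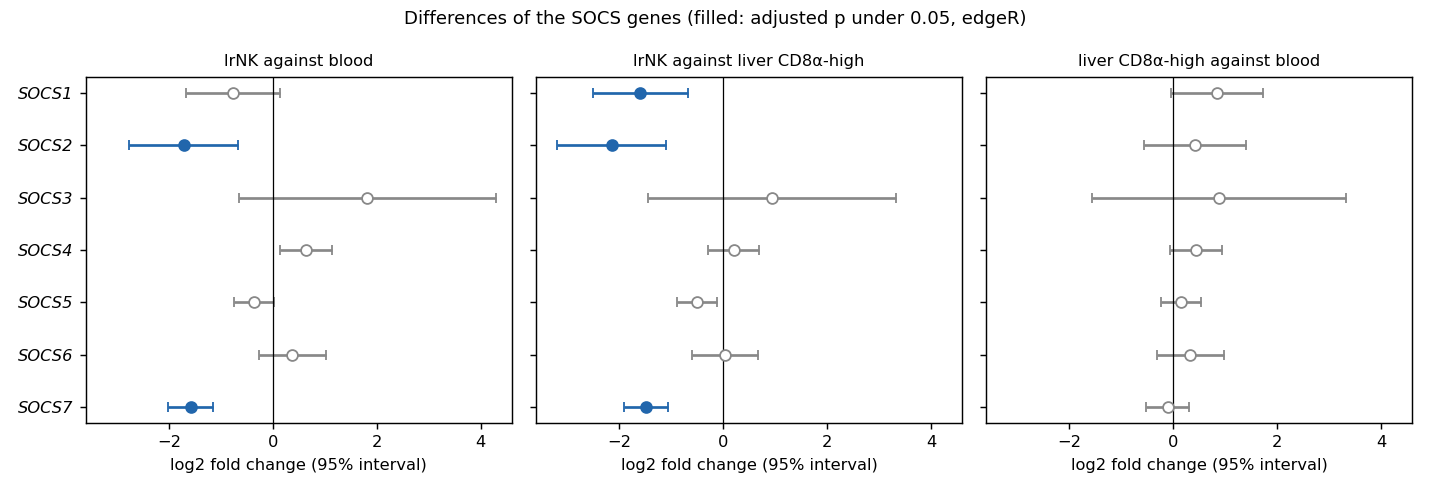
Log2 fold changes of the 7 tested SOCS genes in the 3 comparisons, with 95% intervals from edgeR's quasi-likelihood fit of all 15 libraries. Filled points passed an FDR of 0.05. *SOCS2* and *SOCS7* passed in both lrNK comparisons and *SOCS1* against liver CD8αhigh NK cells, while no member passed between the CD8αhigh populations.

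*SOCS4* was lowest in blood in 3 of 5 pigs and lowest in lrNK cells in pig 3 alone. SOCS4 is known to promote the degradation of the EGF receptor, and its gene lies on chromosome 1 from 184379017 to 184398902. Levels in pigs 1 to 5 were 41.2, 49.1, 68.9, 44.1 and 82.2 CPM in blood and 85.6, 97.9, 44.3, 103 and 114 CPM in lrNK cells. Liver CD8αhigh NK cells lay between 68.1 and 94.6 CPM. Apart from pig 3, every lrNK library was above every blood library. *SOCS4* shares 9336 and 2902 bases with the lncRNA genes *LOC110262207* and *LOC110262208*, which had 2 and 0 reads in all libraries together.

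The *SOCS4* log2 fold change in lrNK cells against blood was 0.65 (SE 0.24, 95% interval 0.15 to 1.15) and missed the threshold (edgeR FDR = 0.0681). Without the lrNK library of pig 3 it was 0.83 and passed (edgeR FDR = 0.0051), and likewise without all libraries of pig 3 (0.89, edgeR FDR = 0.00828). DESeq2 gave 0.66 (adjusted p = 0.0467). Blocking on the pig gave an edgeR FDR of 0.0795. The difference did not pass without pig 1, 2, 4 or 5, and its log2 fold change was smallest without pig 4 (0.51, edgeR FDR = 0.268). A fit of lrNK and blood libraries alone gave 0.64 (edgeR FDR = 0.135). Against liver CD8αhigh NK cells the log2 fold change was 0.20 (95% interval -0.29 to 0.70).

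*SOCS5*, another gene whose product acts on the EGF receptor and on IL-4 signalling, varied little. It lies on chromosome 3 from 93777402 to 93925859. Blood libraries had 47.0 to 65.7 CPM (median 54.6), liver CD8αhigh libraries 52.4 to 73.3 CPM (median 57.3) and lrNK libraries 32.9 to 48.3 CPM (median 44.6). The lrNK level was the lowest of the 3 in 5 of 5 pigs and overlapped with blood but not with liver CD8αhigh NK cells. Of all genes tested, 11.9% did not overlap between the liver populations. The same direction in 5 of 5 pigs was found for 25.9% of all genes against blood and 24.1% against liver CD8αhigh NK cells. Neither difference passed. The log2 fold change was -0.36 against blood (SE 0.19, edgeR FDR = 0.210) and -0.50 against liver CD8αhigh NK cells (SE 0.19, edgeR FDR = 0.0812). *SOCS5* shares 14435 bases with *CRIPT* and 17377 bases with the pseudogene *LOC110260020*, so that its reads are uncertain, the strand setting of the counting not being given.

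*SOCS6*, whose product is known to bind activated KIT and to restrain its signalling, lies on chromosome 1 from 152593647 to 152636645. Its blood levels were scattered, at 35.0, 22.2, 29.0, 12.3 and 62.1 CPM in pigs 1 to 5. Liver CD8αhigh libraries had 32.8 to 49.7 CPM and lrNK libraries 34.9 to 49.2 CPM, so that the liver populations covered nearly the same range. Its log2 fold change was 0.37 in lrNK cells against blood (95% interval -0.27 to 1.01) and 0.04 against liver CD8αhigh NK cells (95% interval -0.59 to 0.68).

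The makeup of the family's reads, a measure that does not depend on the scaling of the libraries, also varied with the population. *SOCS7* held 31.6% to 53.4% of the SOCS reads of a blood library, 29.5% to 37.3% in liver CD8αhigh NK cells and 17.3% to 27.3% in lrNK cells. The share of *SOCS4* was 11.2% to 20.3%, 13.6% to 24.9% and 22.1% to 38.2% in the same order. Shares of a whole depend on each other, so that a smaller *SOCS7* part raises the others. The mean *SOCS5* share was 14.9% in blood and 16.1% in lrNK cells, although its level was lower in the latter. The *SOCS4* share and the ratio of *SOCS4* to *SOCS7* are thus not separate from the *SOCS7* decrease. There were 1.11 to 2.07 *SOCS4* reads for each *SOCS7* read in lrNK libraries, with at most 0.643 in blood and 0.843 in liver CD8αhigh libraries, so that the lrNK libraries did not overlap with the others. Of 4 such ratios computed, that of *SOCS2* to *SOCS4* did not overlap either, at most 0.119 in lrNK libraries and at least 0.208 elsewhere, while those of *SOCS1* to *SOCS4* and to *SOCS7* overlapped. These pairs were chosen with the levels known. *SOCS1* held 3.15% to 16.8% in lrNK cells and 11.8% to 30.9% in liver CD8αhigh NK cells, which overlapped. In all, SOCS reads made up 270.1 ± 47.9 CPM (SD, n = 5) in lrNK cells, 379 ± 85.3 CPM in blood and 450 ± 72.1 CPM in liver CD8αhigh NK cells. These shares and sums are descriptions, for which no test was made.

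**Figure D3:**
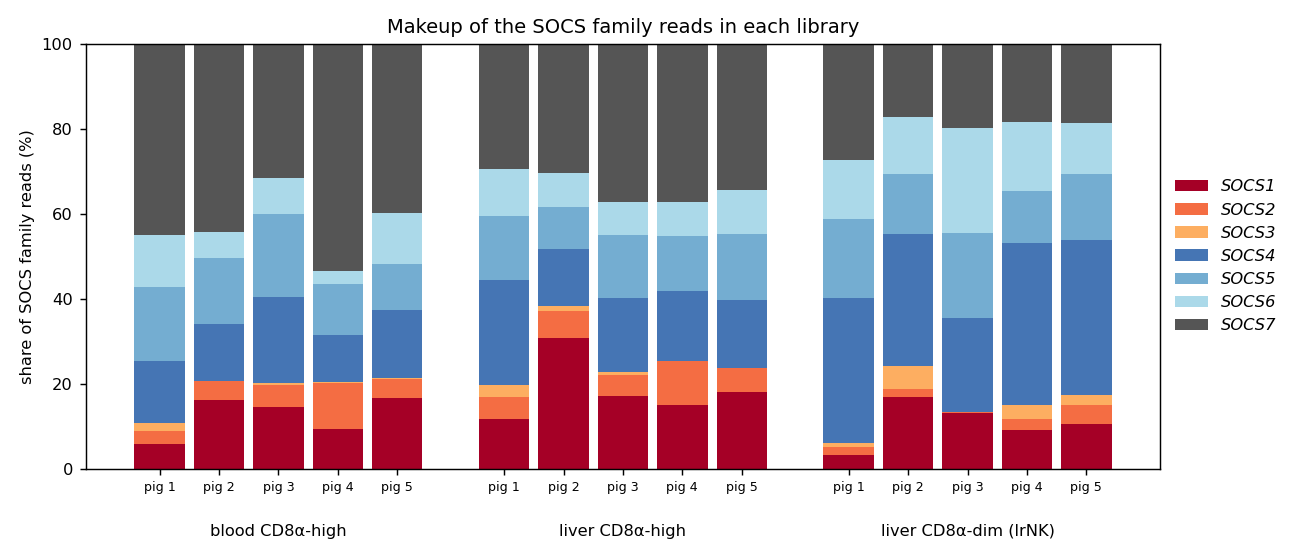
Share (%) of all SOCS family reads that came from each of the 7 genes with reads, in each of the 15 libraries. The grey *SOCS7* part was 17.3% to 27.3% in lrNK libraries and at least 29.5% in all CD8αhigh libraries.

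Liver CD8αhigh and blood CD8αhigh NK cells did not differ in any SOCS gene beyond the test's threshold. Of the 7 tested members, 6 had a log2 fold change above 0, from 0.14 for *SOCS5* to 0.88 for *SOCS3*, the latter being 0.16 without the liver CD8αhigh library of pig 1, and *SOCS7* had one of -0.10 (95% interval -0.52 to 0.31). None had an unadjusted p under 0.05 in the unblocked edgeR fit of all 15 libraries, where 549 of all tested genes did, and DESeq2 called none of the 7. In an edgeR fit of these CD8αhigh populations alone the unadjusted p was 0.0295 for *SOCS1* and 0.0316 for *SOCS4*, with FDRs of 0.5505 and 0.555. *SOCS1* was the only member with the same direction in all 5 pigs, which held for 11.5% of all tested genes. The intervals of *SOCS1* and *SOCS2* reach log2 fold changes of 1.72 and 1.40, so that sizeable increases in liver CD8αhigh NK cells remain within what these 5 pigs allow.

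Genes that work with the SOCS proteins were described from lists. Of 10 genes of the SOCS box ubiquitin ligase and its activation, all were tested and only *NEDD8*, the modifier that activates cullins, was higher in lrNK cells than in blood (118 ± 41.7 against 63.4 ± 5.51 CPM, SD, n = 5, log2 fold change 0.89, edgeR FDR = 0.0045). The other 9, among them *CUL5* with a log2 fold change of -0.11, *ELOB* with 0.60 and *ELOC* with 0.32, did not pass, so that 10% were called, with 18.2% of all genes. The list's median log2 fold change was 0.26.

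Of 29 receptor chains that SOCS proteins act on or that induce them, 21 were tested, 4 of which were higher in lrNK cells relative to blood and 2 lower (28.6% called, with 18.2% of all genes). *IFNAR2*, a chain of the receptor for type I interferons, rose from 64.9 ± 9.81 to 203 ± 25.6 CPM (1.64 on the log2 scale, edgeR FDR = 3.11e-05). *IFNGR1*, the ligand-binding chain of the interferon-γ receptor, had a log2 fold change of 1.03 (edgeR FDR = 0.00365). The fallers were *IL10RA*, the IL-10 receptor chain (173 ± 28.0 to 47.0 ± 11.4 CPM, log2 fold change -1.88, edgeR FDR = 2.27e-07), and *INSR*, the insulin receptor (33.3 ± 9.67 to 8.94 ± 2.46 CPM, log2 fold change -1.90, edgeR FDR = 1.76e-04). The shared IL-2 and IL-15 receptor chains did not pass, *IL2RB* with a log2 fold change of 0.60 and *IL2RG* with 0.31 (edgeR FDR = 0.330 and 0.215). Against liver CD8αhigh NK cells the list had 2 higher and 4 lower genes (28.6% called, with 14.6% of all genes), the former being *IFNAR2* (log2 fold change 1.34) and *IFNAR1* (1.00), and *IL10RA* and *INSR* again fell (-1.41 and -1.61).

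Of the 11 JAK kinases and STAT factors, 3 were higher and 1 was lower in lrNK cells than in blood (36.4% called, with 18.2% of all genes). *JAK1*, the kinase shared by interferon and IL-2 family receptors, was 2.52-fold higher, and *STAT2*, which acts downstream of type I interferon receptors, was 2.24-fold higher (173 ± 62.0 against 77.4 ± 10.3 CPM, SD, n = 5, edgeR FDR = 6.24e-04). *STAT5B*, a main transducer of IL-2 and IL-15 signals and an inducer of *CISH* and *SOCS2*, fell from 238 ± 23.1 to 149 ± 25.4 CPM (-0.68 on the log2 scale, edgeR FDR = 0.00247). *STAT5A* did not pass (log2 fold change -0.19, edgeR FDR = 0.554). Against liver CD8αhigh NK cells, 3 genes of the list were higher and 1 was lower (36.4% called, with 14.6% of all genes). The lower gene was again *STAT5B* (log2 fold change -0.46, edgeR FDR = 0.0412).

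The other brakes on cytokine signalling changed in both directions. The 20 tested genes were mainly those of phosphatases, PIAS proteins, adaptors and ubiquitin ligases. Of these 20, 6 rose and 4 fell from blood to lrNK cells (50% called, with 18.2% of all genes). Against liver CD8αhigh NK cells 5 were higher and 3 lower (40% called, with 14.6% of all genes). The ubiquitin ligase gene *CBLB*, a brake on NK and T cell activation, rose from 211 ± 29.8 to 666 ± 172 CPM (1.66 on the log2 scale, edgeR FDR = 9.94e-07). *SLA*, an adaptor that dampens antigen receptor signalling, was 3.98-fold higher than in blood (edgeR FDR = 3.18e-05), and *DOK1*, an inhibitory docking protein, was 2.78-fold higher than in liver CD8αhigh NK cells (edgeR FDR = 2.01e-04). In contrast, *PTPN1*, a phosphatase of JAK2, TYK2 and the insulin receptor, fell from 539 ± 75.8 to 228 ± 16.8 CPM (-1.24 on the log2 scale, edgeR FDR = 8.74e-07). *TRIM8* fell from 158 ± 33.3 to 29.3 ± 6.48 CPM (-2.42 on the log2 scale, edgeR FDR = 1.73e-07). Its product is known to interact with SOCS1 and need not itself act as a brake.

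Of 16 tested genes that STAT5 or STAT3 are known to induce, lrNK cells had higher levels of 2 and lower levels of 4 relative to blood (37.5% called, with 18.2% of all genes). The survival gene *MCL1* rose (log2 fold change 1.07, FDR = 5.01e-05) and so did the kinase gene *PIM2* (1.35, FDR = 0.0074), while the cytotoxic protease gene *GZMB* (-2.63, FDR = 5.59e-04) and the AP-1 gene *JUNB* (-1.04, FDR = 0.00161) fell (edgeR). Against liver CD8αhigh NK cells 2 genes of the list were higher and 3 lower (31.2% called, with 14.6% of all genes). The same 4 genes were among them, in the same directions. None of the genes of these 5 lists passed between the CD8αhigh populations.

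**Figure D4:**
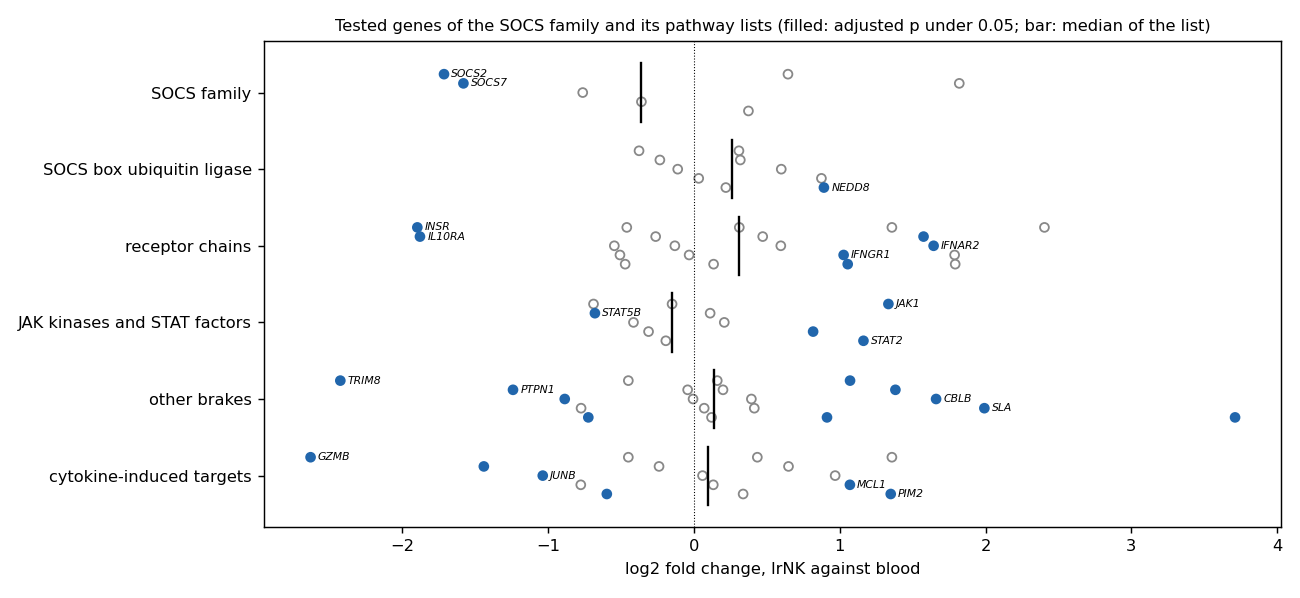
Log2 fold changes in lrNK cells against blood of the tested genes of the SOCS family and of 5 lists of its pathway. Each circle is a gene (spread vertically for legibility), filled circles passed an FDR of 0.05, vertical bars are list medians, and names are given for the genes described in the text. The median of the SOCS genes is -0.36 and that of the receptor chains 0.31.

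The genes whose levels followed each member most closely were taken by Pearson's r of log2 CPM over the 15 libraries, which share pigs and fall into an lrNK and a CD8αhigh group. Genes that differ between these groups share that division. *SOCS7* was most like *PTPN1* (r = 0.967), *GALNT10* (0.957) and *TBX21* (0.954). For *SOCS2* these were *LBH* (0.949), *EGLN1* (0.948) and *CCDC82* (0.947). *SOCS1* was most like *STT3B* (0.897), *CTNNB1* (0.889) and *NPHP4* (0.861). The closest genes were *SDCBP2* (0.899) for *SOCS4*, *PICALM* (0.906) for *SOCS5* and *TRIP11* (0.903) for *SOCS6*. These values are descriptions of the libraries, selected from all named genes tested.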

How the data were processed

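The authors sorted 3 NK cell populations of 5 pigs, made QuantSeq 3′ libraries, trimmed the reads with QuasR, aligned them with Rhisat2 to Sscrofa11.1 and deposited raw counts per gene without normalization. The counting tool, strand setting and treatment of reads with several alignments are not given in the sources used here, so counts of overlapping genes are uncertain. Each of the 15 columns names its population and pig. Counts were fitted in R 4.3.3 with edgeR 4.0.16 (TMM, filterByExpr's defaults, leaving 10939 genes, quasi-likelihood test, all libraries in a single fit, Benjamini-Hochberg adjustment), and with DESeq2 1.42.0 as an alternative. The standard error is the log2 fold change divided by the square root of F. Libraries are paired by pig, since the labels give the donor: deviations from population means of libraries of the same pig correlated at -0.0191 to 0.193 over all pairs, with means of 0.0613, 0.168 and 0.0897 in the 3 comparisons, and at -0.015 to -0.042 on average between pigs. The between-pig values follow from the centring on population means and are no separate comparison. Because of the shared donors, a fit with the pig as a block was also run. Nothing marks technical batches. The members and lists were chosen with earlier results of these data known. Named were all 8 members, per list and comparison up to 2 higher and 2 lower genes with the smallest adjusted p and the same direction in 5 of 5 pigs, marker genes in checks of the sorted cells, and the 3 named genes most correlated with each member of at least 10 CPM; other genes named (*IL2RB*, *IL2RG*, *CUL5*, *ELOB*, *ELOC*, *STAT5A*, *EEF1A1*, *TBP*, *NR4A1*, *BCL3*, *HSP90AA1*) were chosen after their values were seen. Alternatives were other scalings, filters and dispersions, the block, only the populations compared, and leaving out pigs or libraries. Scripts were tested on simulated data. Coordinates come from a RefSeq table of the same assembly, which matched 29862 genes. Sequences were not used here. Figures: matplotlib 3.10.9 (Python 3.11.15).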

Additional observations from a re-analysis of the deposited data

How the results depend on the processing

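Leaving out each pig in turn, the number of SOCS genes called ran from 1 to 3 in lrNK cells against blood, stayed at 0 between the CD8αhigh populations and ran from 2 to 3 between the liver populations, and a fit of lrNK and blood libraries alone called 1. Without the blood library of pig 4, also added after the data were seen, 1 SOCS gene was called against blood, and 4 of all genes between the CD8αhigh populations. The *SOCS7* decrease passed under every alternative run in both lrNK comparisons. Over the pigs left out, all genes called numbered 1476 to 1934 in lrNK cells against blood, 0 to 8 in liver CD8αhigh NK cells against blood and 1051 to 1438 between the liver populations, and pathway genes called 15 to 23 in the last (1746 and 27 at most with the lrNK library of pig 3, or it and the liver CD8αhigh library of pig 1, left out). Between the CD8αhigh populations, where 7 genes were called, the number was 25 with DESeq2, 18 without a filter on low counts, 4 with robust dispersion, 17 with only these populations, 12 without the lrNK library of pig 3, and 22 without this library and the liver CD8αhigh library of pig 1, an alternative added after the data were seen. None of these were SOCS genes. The small *SOCS7* difference between the CD8αhigh populations ran from -0.23 to 0.0061 over the pigs left out, turning to 0.0061 without pig 4, to 0.00093 without the liver CD8αhigh library of pig 1, to 0.0013 without this and the lrNK library of pig 3, and to 0.010 without the blood library of pig 4 (log2 scale). The *SOCS6* difference between the liver populations ran from -0.084 to 0.14, turning to -0.084 without pig 3, to -0.04 without pig 4, to -0.02 without the lrNK library of pig 3 and to -0.0078 without the lrNK library of pig 3 and the liver CD8αhigh library of pig 1. The cause was not tested. With the pig as a block, 3 SOCS genes were called in lrNK cells against blood and 3 between the liver populations. The block changed no SOCS call other than that of *SOCS1* against blood. All genes called against blood numbered 2120 with the block and 1993 without it. Between the liver populations 782 were higher and 934 lower in lrNK cells with the block, and 761 and 840 without it. Library totals in place of TMM, also added after the data were seen, changed no call of a SOCS gene. The low counts of *SOCS3* and *SOCS2* in lrNK libraries limit what the depth can show.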

Other observations

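No SOCS gene had a library apart from the other 4 of its population by Dixon's criterion, which with n = 5 finds only very large gaps. The largest ratios of gap to range were 0.687 for *SOCS7* and 0.684 for *SOCS4* in the liver CD8αhigh library of pig 1. That of *SOCS1* in the liver CD8αhigh library of pig 2 was also 0.684. In blood, the pigs with the highest levels differed by gene: pig 5 for *SOCS1*, *SOCS4* and *SOCS6*, pig 4 for *SOCS2* and *SOCS7*, pig 3 for *SOCS5* and pig 1 for *SOCS3*. Among the heat shock and immediate early genes, lrNK cells had 4.14 ± 3.8 CPM (SD, n = 5) of the nuclear receptor gene *NR4A3*, with 151 ± 64.0 CPM in blood (log2 fold change -5.27, edgeR FDR = 2.03e-07) and 222 ± 70.5 CPM in liver CD8αhigh NK cells (log2 fold change -5.83, edgeR FDR = 6.82e-08), while *EGR3* was higher in lrNK cells than in blood (63.8 ± 27.8 against 3.26 ± 3.16 CPM, log2 fold change 4.33, edgeR FDR = 1.63e-05), so that genes of this list moved in opposite directions within the same libraries.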
